A study of Mus musculus with 17 samples.

Results

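Mitosis and cytokinesis genes were followed through 17 RNA sequencing libraries of mouse fetal liver cells. The list holds 42 genes: cyclins and mitotic kinases (7), the chromosomal passenger complex (4), the spindle checkpoint (5), centromere and kinetochore proteins (7), spindle motors and microtubule-binding proteins (5), central spindle and cytokinesis proteins (6), proteins of anaphase entry (3) and proteins of chromosome structure (5). They were chosen by name for their role in cell division, though with earlier results of these data known. All 42 were found among the 46880 genes that the 3 deposited tables share, and all 42 passed the filter on low counts in each fit.

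The cells came from embryos of E12.5 to E13.5 of a B6J mouse strain that carries Cas9 and EGFP at the Rosa26 locus under the CAG promoter. In 5 of the 6 groups the cells held a guide RNA against Gata1 (sgGata1) and are named Gata1s cells by the study, after a short form of GATA1, a transcription factor of blood cells. Of these, 3 libraries carried the luciferase control LUC and 3 an Arid3a transgene, both with doxycycline at 1 µg/mL for 48 h. A further 3 carried a control hairpin (sh-ctrl), 2 a hairpin against Arid3a (shArid3a, replicates 1 and 3) and 3 the microRNA miR-125b, all with doxycycline at 1 µg/mL for 10 days. The WT group of 3 libraries held a luciferase guide and a luciferase hairpin, sgLuc and shLuc, without doxycycline. The study asked how the level of Arid3a, a DNA-binding protein, acts in Gata1s cells. The labels do not say whether replicates came from separate cultures or embryos, so p-values measure the spread between these libraries, which may be technical.

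Mitosis begins when CDK1 binds cyclin B, and Aurora and Polo-like kinases then drive assembly of the spindle. Kinetochores, built on centromeres, attach chromosomes to microtubules, and the spindle checkpoint holds back anaphase until the attachments are complete. The central spindle then tells the cell cortex, through ECT2 and RhoA, where to build the contractile ring that divides the cell. Megakaryocytes, the platelet-forming cells of blood, come to differ from other blood cells here: they copy their DNA and enter mitosis but do not complete cytokinesis, and so become polyploid.

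Library totals ranged from 16362439 to 40859301 counts, lowest in WT. Levels are CPM, the count scaled to a common library size with TMM factors, and compared groups were tested with edgeR's quasi-likelihood test with Benjamini-Hochberg adjustment over all genes; a gene is called at an adjusted p under 0.05. Megakaryocyte markers were present in every group, with all 12 above 1 CPM, and their sum ran from 3366 to 4285 CPM with miR-125b and 3625 to 5421 in sh-ctrl. It was 1363 to 1574 CPM in WT, where 9 of 9 myeloid markers reached 1 CPM and summed to 10333 to 14369 CPM. In the Gata1s groups the myeloid sum was at most 165 CPM. The Arid3a transgene did not show in the counts of Arid3a, at 61.9, 59.0 and 64.2 CPM in LUC and 53.1, 68.9 and 74.2 in the libraries labelled Arid3a (adjusted p = 0.737). With the hairpin, Arid3a fell from 58.2 ± 7.59 (SD, n = 3) in sh-ctrl to 21.9 ± 0.674 CPM (n = 2; adjusted p = 0.0368), and with miR-125b to 9.98 ± 1.73 (n = 3; adjusted p = 0.000282). Gata1 stood at 232 to 593 CPM in the Gata1s libraries and at 61.7 to 72.9 CPM in WT. In these bulk samples, fewer cells of a type (or in mitosis) and less RNA per cell cannot be told apart.

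All 42 genes had counts in every library. Their summed level was 6483 to 6767 CPM in LUC, 6749 to 7195 in the libraries labelled Arid3a, 6311 to 6962 in sh-ctrl, 7852 to 8055 in shArid3a, 6617 to 7229.8 with miR-125b and 6234 to 7084 in WT. With this scaling both shArid3a libraries lay above all 15 others. Their TMM factors were 0.900 and 0.811, against 1.11, 1.09 and 1.10 in the libraries labelled Arid3a, so this order depends on the scaling. Per kilobase of gene length, averaged over the 6 groups, the highest were Cdc20, the activator of the anaphase-promoting complex, at 139 CPM per kb, cyclin B2 (Ccnb2) at 118 and Plk1, a kinase of spindle assembly, at 75.5. The lowest was the kinetochore protein gene Cenpf at 6.0, below the checkpoint kinase Ttk at 8.80, the spindle bundler Prc1 at 8.81, the RhoA activator Ect2 at 8.87 and the ring scaffold anillin (Anln) at 9.39. The heat map of all 42 genes shows these levels library by library.

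**Figure D1:**
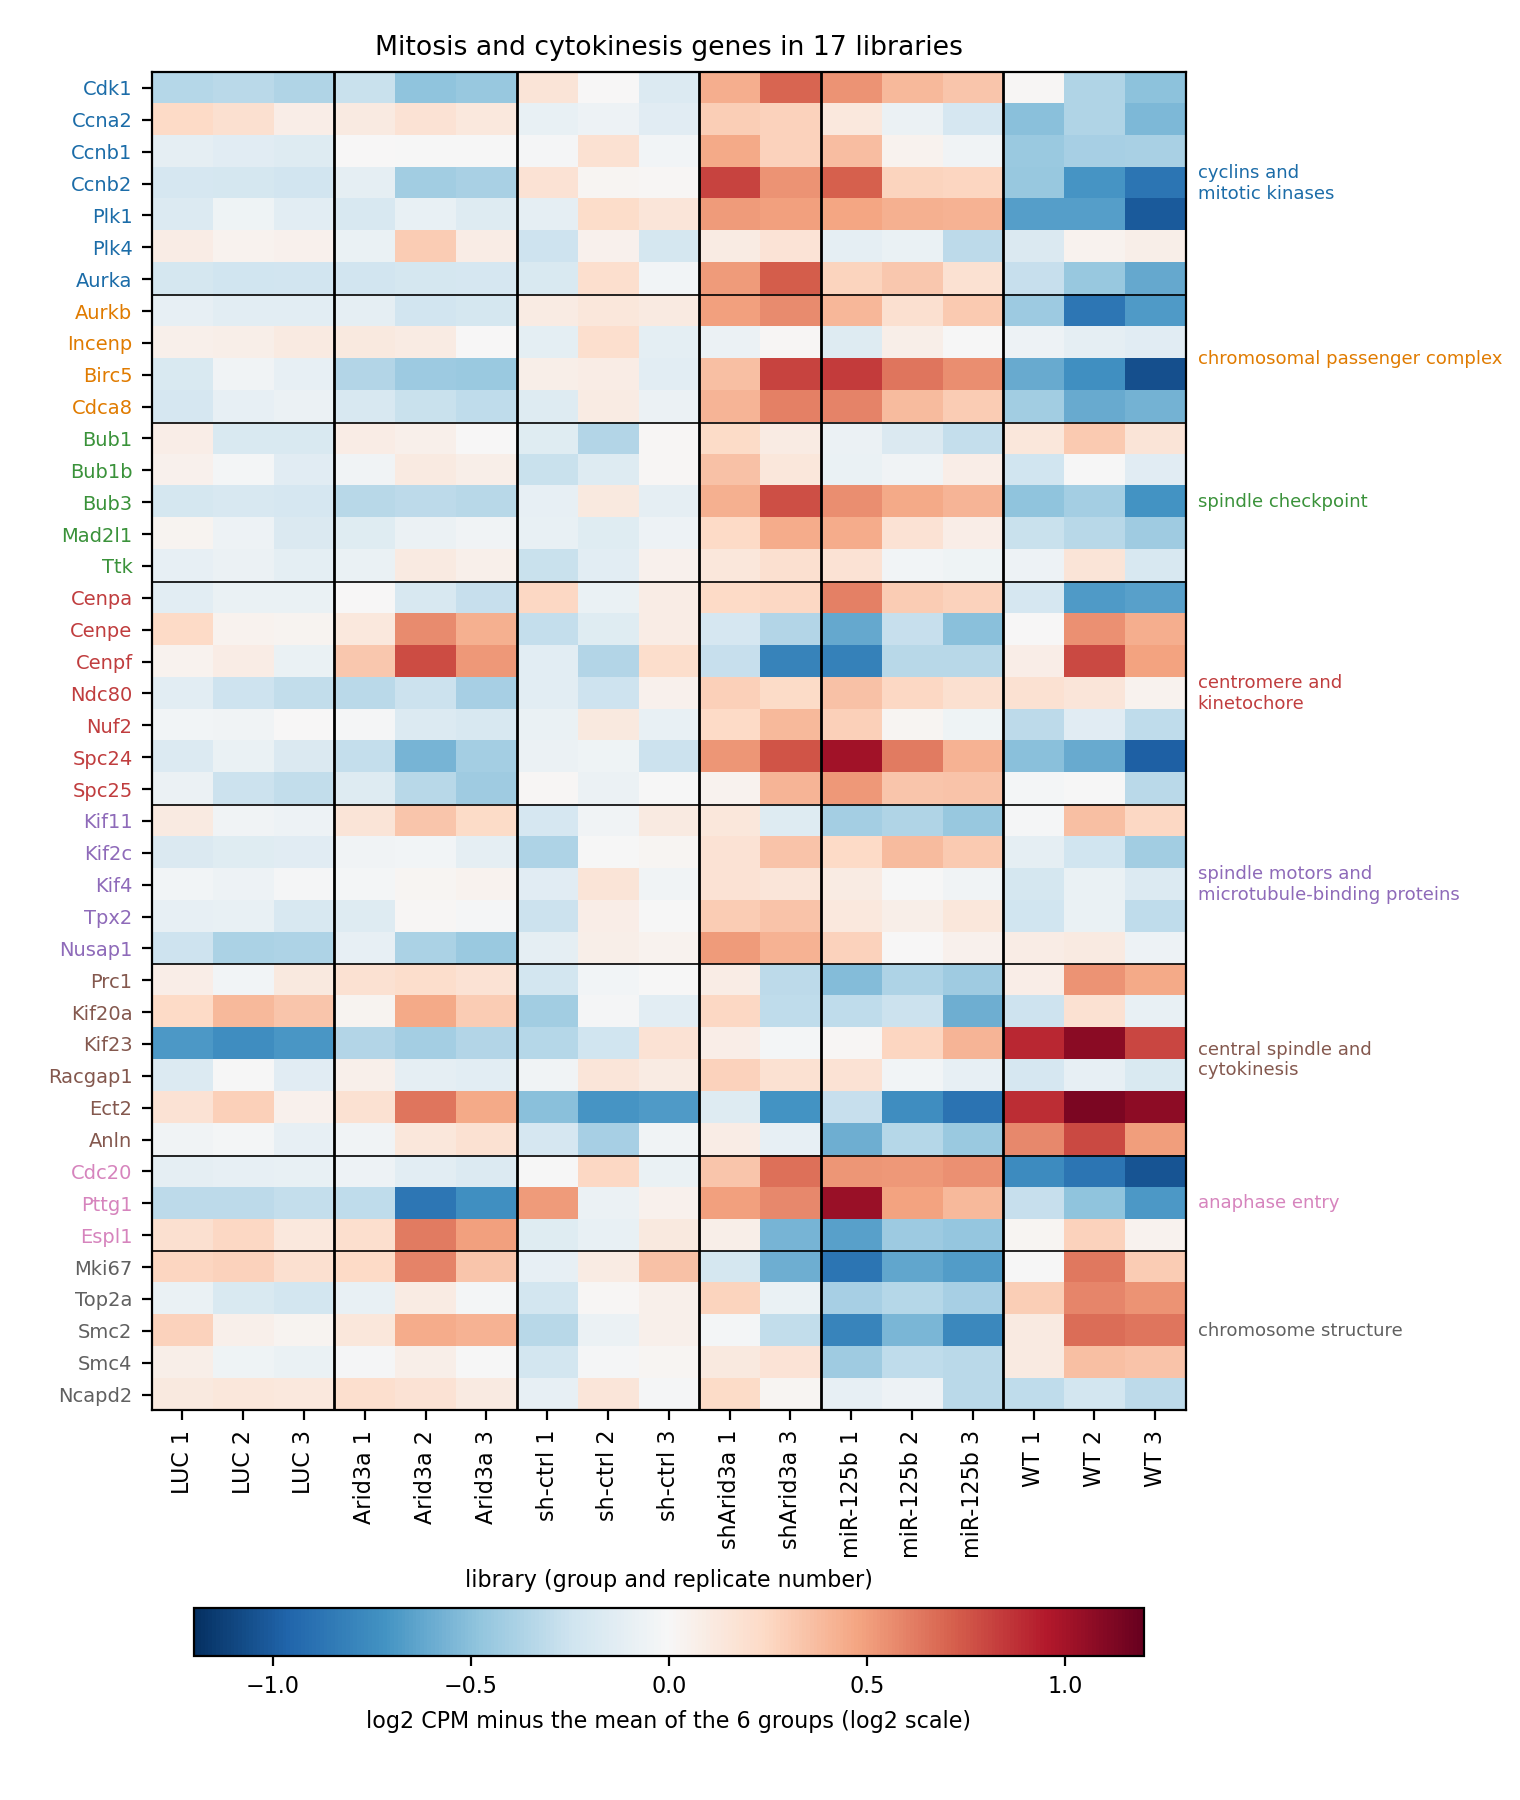
Level of each of the 42 genes in the 17 libraries, as log2 CPM minus the mean of the 6 group means (red above, blue below), with genes grouped by role (side labels) and vertical lines between groups. Spc24, Birc5 and Bub3 are red in shArid3a and miR-125b, Mki67 and Smc2 are blue with miR-125b, and Ect2 and Kif23 are reddest in WT.

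Many genes of late cell cycle share 2 promoter elements: the cell cycle genes homology region (CHR), bound by repressor and activator complexes of the DREAM and B-MYB family, and CCAAT boxes, bound by NF-Y. RefSeq promoters (GRCm38.p6, 250 bases before to 50 after the start) were found for 35 of the 42 genes. Of these 35, 26 (74.3%) held a CHR match (TTTGAA or TTCAAA), 26 (74.3%) a CCAAT match (CCAAT or ATTGG) and 23 (65.7%) both. Among 9727 promoters of all genes tested in the table with the hairpins, the shares were 12.2%, 39.2% and 5.30%, and over all 27025 promoters 18.1%, 37.9% and 7.12%. An E2F core (GGCGGGA or TCCCGCC) was in 8 (22.9%) against 21.2% of the promoters of genes tested. Of 27 promoters of S phase genes, 5 (18.5%) held a CHR match, 21 (77.8%) a CCAAT match and 6 (22.2%) an E2F core.

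Promoters are shown for 1 gene per role where found, the one with the smallest p when miR-125b is set against sh-ctrl. Of these genes, Cdk1 and Prc1 did not pass that test. The kinetochore gene of that choice, Spc24, had no promoter found and is absent from those shown. Each runs 5′ to 3′ on the strand of the gene, with matches to CHR, CCAAT and E2F core in capitals; for Bub3 and Prc1 the first of several listed starts is shown, and the RefSeq start of Kif2c lies inside the gene as GENCODE draws it.
Cdk1, chr10:69352863-69353162 (- strand): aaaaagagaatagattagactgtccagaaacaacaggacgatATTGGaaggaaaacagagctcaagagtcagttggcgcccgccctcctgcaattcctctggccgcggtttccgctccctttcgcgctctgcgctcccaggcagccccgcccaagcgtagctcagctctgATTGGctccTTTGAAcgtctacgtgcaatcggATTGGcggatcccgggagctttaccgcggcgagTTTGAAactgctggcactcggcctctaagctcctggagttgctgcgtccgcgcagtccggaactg
Birc5, chr11:117848987-117849286 (+ strand): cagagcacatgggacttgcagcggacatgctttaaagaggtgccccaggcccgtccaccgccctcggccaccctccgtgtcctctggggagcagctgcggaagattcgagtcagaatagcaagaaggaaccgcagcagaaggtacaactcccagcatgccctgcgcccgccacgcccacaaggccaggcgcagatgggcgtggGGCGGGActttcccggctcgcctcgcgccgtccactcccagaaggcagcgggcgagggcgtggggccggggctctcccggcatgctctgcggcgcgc
Bub3, chr7:131560120-131560419 (+ strand): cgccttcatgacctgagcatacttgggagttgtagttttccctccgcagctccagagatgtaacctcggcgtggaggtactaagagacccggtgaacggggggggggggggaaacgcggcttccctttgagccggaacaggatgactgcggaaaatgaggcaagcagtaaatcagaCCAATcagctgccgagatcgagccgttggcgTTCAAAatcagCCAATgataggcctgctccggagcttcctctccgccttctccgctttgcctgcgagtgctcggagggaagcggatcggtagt
Kif2c, chr4:117178723-117179022 (- strand): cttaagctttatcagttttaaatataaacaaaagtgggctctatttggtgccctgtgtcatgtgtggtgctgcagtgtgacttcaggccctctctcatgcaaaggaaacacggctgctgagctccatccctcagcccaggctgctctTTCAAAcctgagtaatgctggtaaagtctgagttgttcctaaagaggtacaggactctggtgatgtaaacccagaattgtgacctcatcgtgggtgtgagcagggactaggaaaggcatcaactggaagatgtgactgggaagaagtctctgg
Prc1, chr7:80294201-80294500 (+ strand): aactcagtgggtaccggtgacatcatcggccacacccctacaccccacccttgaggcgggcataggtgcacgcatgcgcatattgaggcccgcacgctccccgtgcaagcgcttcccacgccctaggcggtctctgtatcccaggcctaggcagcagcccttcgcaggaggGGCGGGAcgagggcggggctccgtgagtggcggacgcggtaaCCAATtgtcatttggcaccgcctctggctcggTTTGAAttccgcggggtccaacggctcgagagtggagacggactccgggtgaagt
Cdc20, chr4:118437294-118437593 (- strand): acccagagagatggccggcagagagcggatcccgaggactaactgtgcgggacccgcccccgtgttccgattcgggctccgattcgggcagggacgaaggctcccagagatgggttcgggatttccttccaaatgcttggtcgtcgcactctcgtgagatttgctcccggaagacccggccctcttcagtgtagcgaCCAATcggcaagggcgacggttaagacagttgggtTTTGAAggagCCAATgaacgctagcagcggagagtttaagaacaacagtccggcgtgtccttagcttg
Mki67, chr7:135716330-135716629 (- strand): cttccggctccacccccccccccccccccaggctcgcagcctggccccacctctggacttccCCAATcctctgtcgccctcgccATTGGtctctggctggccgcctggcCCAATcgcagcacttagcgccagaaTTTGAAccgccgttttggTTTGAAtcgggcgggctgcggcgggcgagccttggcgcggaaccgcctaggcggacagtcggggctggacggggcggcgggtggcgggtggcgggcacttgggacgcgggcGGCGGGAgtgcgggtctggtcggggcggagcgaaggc

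Cdk1 and Mki67 held 2 CHR matches each, Bub3, Kif2c, Prc1 and Cdc20 held 1 and Birc5 held none. Overlapping matches were counted as they stand, on both strands. The 26 genes with a match and the 9 without had median log2 fold changes of 0.20 and 0.31 with the Arid3a hairpin, and of 0.11 and 0.088 with miR-125b. Genes with a CHR match spanned -0.86 (Mki67) to 0.48 (Bub3) with miR-125b. A match is a description of the letters and no more.

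In the libraries labelled Arid3a, none of the 42 genes passed the test against LUC, and neither did any of the 13495 genes tested (0.0% called). The lowest adjusted p among the 42 was 0.0896. At an unadjusted p under 0.05 there were 5 genes on the higher side and 3 on the lower, together 19.0% of the list against 21.4% of all genes tested; the 8 became 3 to 5 without LUC replicate 2 or 3 or Arid3a replicate 2 or 3. The median log2 fold change was 0.033, against 0.010 over all genes. Values ran from -0.31 for securin (Pttg1), the inhibitor of separase, to 0.53 for Cenpf.

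Cenpf stood at 91.7, 94.5 and 84.1 CPM in LUC and at 111, 153 and 128 in the libraries labelled Arid3a, without overlap (log2 fold change 0.53, SE 0.11, adjusted p = 0.0896). Kif23, the motor of the central spindle, was also apart, at 27.1, 26.0 and 26.9 against 34.2, 33.0 and 34.1 CPM (0.34, SE 0.074). Birc5 (survivin), the passenger complex subunit that brings Aurora B to centromeres, lay the other way, at 160.3, 176 and 169.7 against 143, 134 and 134 (-0.30, SE 0.069). Groups did not overlap for 6 genes on the higher side (12.8% of all genes) and 3 on the lower (14.7%). The checkpoint protein gene Bub3 was among the lower ones, at 191, 194 and 193 against 175, 177 and 176 CPM, a small step of -0.13 (SE 0.055). Kif11, the motor that pushes spindle poles apart, was at 245, 219.6 and 217 in LUC and 252, 285 and 266 CPM with the label Arid3a (0.23, SE 0.074).

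Cyclin B1 (Ccnb1) was at 215, 211 and 207 CPM in LUC and at 231, 231 and 231 in the libraries labelled Arid3a, a difference of 0.13 (SE 0.055). Its kinase Cdk1 overlapped, with 154, 155 and 152 against 161, 139 and 142 CPM. So did separase (Espl1), the protease that cuts cohesin, at 111, 115 and 106 against 112, 149.8 and 137, where Arid3a replicate 1 lay inside the LUC range and the other two above it. Ect2 had the same layout, at 49.0, 53.0 and 45.3 against 49.5, 68.1 and 59.6 CPM. For topoisomerase II alpha (Top2a), which untangles chromosomes, values were 554, 515 and 503 and 548, 626 and 576 CPM, and for the proliferation marker Mki67 688, 696 and 658 and 679, 871 and 726. Aurora B (Aurkb) was at 152, 148 and 148 and 151, 138 and 140.3 CPM, and the kinetochore gene Ndc80 at 52.7, 48.3 and 47.0 and 46.0, 48.2 and 43.6; both overlapped. By role, the median log2 fold change ran from -0.10 for the kinetochore and -0.10 for the passenger complex (4 of 4 below 0) to 0.14 for cytokinesis (5 of 6 above 0) and 0.15 for chromosome structure (5 of 5 above 0). With the trend of gene length removed, described later, these medians were -0.052, -0.094, 0.030 and -0.026.

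The count of calls rested on 1 library. Without Arid3a replicate 1, 3198 genes were called over the table, and in the list Cenpe, Cenpf, Ect2, Espl1, Kif11, Kif23 and Smc2 were called higher and Birc5, Ccnb2, Pttg1 and Spc24 lower; DESeq2 on all 6 libraries called Cenpf and Kif23 higher and Birc5 lower.

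**Figure D2:**
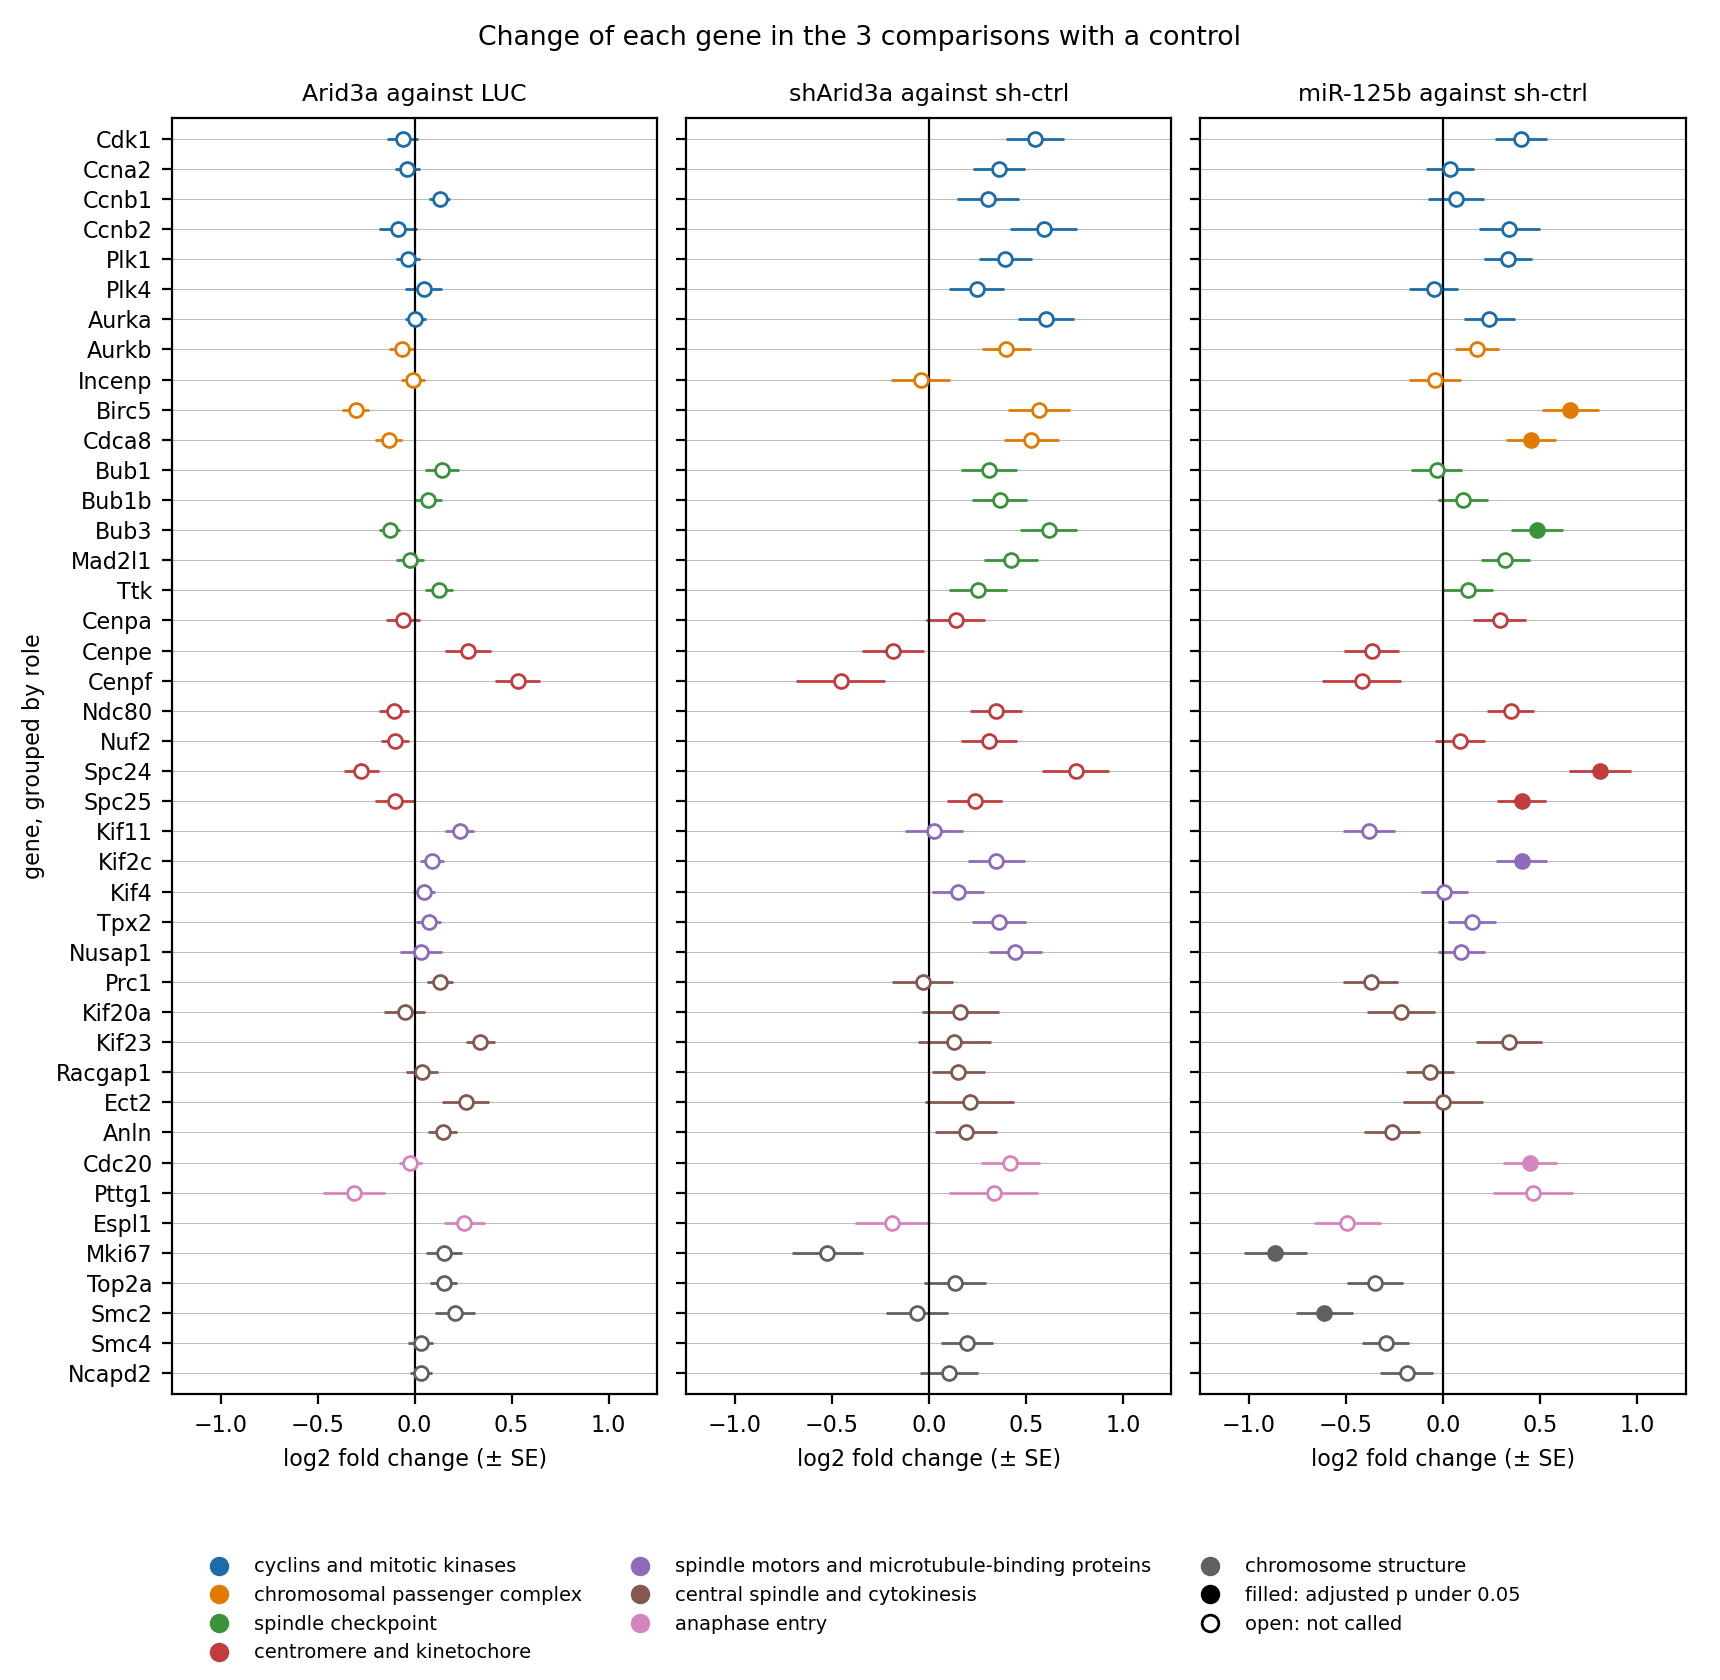
Log2 fold change (x axis, ± SE) of each of the 42 genes (y axis, coloured by role) in the 3 comparisons with a control; filled points have an adjusted p under 0.05. No point is filled for Arid3a or shArid3a, and 9 are filled for miR-125b, 7 above 0 and 2 below.

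With the Arid3a hairpin, the list sat above its control without a single call. Of the 42 genes, 35 had a log2 fold change above 0, the median was 0.28 against -0.023 over the 14004 genes tested, and no gene passed the test (lowest adjusted p = 0.0989; 0.0857% of all genes were called, 0.05% higher and 0.0357% lower). At an unadjusted p under 0.05 there were 17 genes on the higher side and 1, Mki67, on the lower, together 42.9% of the list against 25.8% of all genes; the 18 became 11 without sh-ctrl replicate 1 and 12 without shArid3a replicate 3. The 2 hairpin libraries lay above all 3 controls for 25 genes (59.5% of the list; 22.4% of all genes) and below them for 1 (2.38%; 21.7%). Under scaling by library totals the median of the list was 0.085 and that of all genes -0.22, so that the distance between them stayed while both moved down.

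Spc24, a subunit of the NDC80 complex that grips microtubules at the kinetochore, had the highest value, at 72.2, 73.4 and 63.7 CPM in sh-ctrl against 110.0 and 129 in shArid3a (log2 fold change 0.76, SE 0.17, adjusted p = 0.0989). Bub3 was at 206, 240.4 and 205 against 297 and 378 CPM (0.62, SE 0.15). Aurora A (Aurka), the kinase of spindle poles, was at 83.6, 109 and 92.7 against 136 and 157 (0.60, SE 0.14). None of these 3 genes had a hairpin library within the range of the controls. Mki67, which coats mitotic chromosomes, was the lowest at 538, 614 and 732 against 498 and 384 CPM (-0.52, SE 0.18).

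All 7 cyclins and mitotic kinases had both hairpin libraries above every control, with a median of 0.39 and a range of 0.25 to 0.60. Cdk1 itself was at 216, 195 and 174 CPM in sh-ctrl and 262 and 316 in shArid3a. All 5 checkpoint genes were placed the same way (median 0.36), and 3 of 4 passenger genes (median 0.46). Borealin (Cdca8), which binds the complex to centromeres, was at 169, 201 and 179.6 against 249.8 and 286 CPM, and Aurkb at 173, 179 and 175 against 228 and 241. The exception was Incenp, the scaffold of the same complex, at 202, 252 and 202 against 208 and 221 CPM, inside the control range.

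Kinetochore genes were split. The microtubule-binding NDC80 complex was on the higher side, with Ndc80 at 52.7, 48.4 and 59.6 against 70.3 and 67.4 CPM, while the large outer proteins Cenpe and Cenpf had log2 fold changes of -0.18 and -0.45. The median of the role was 0.24, and 0.23 with the trend of gene length removed. Cenpf is the longest gene of the list, and the part of gene length in this split was not tested. Cdc20 was at 247, 294 and 235 against 311 and 390.4 CPM and Espl1 at 88.0, 91.6 and 106 against 102 and 66.0, the latter with replicate 1 inside the control range and replicate 3 below it. The spindle stabiliser Nusap1 was at 115, 130.0 and 128 against 177 and 166 CPM, with both above the controls. Kif11 was at 197, 219.6 and 244 against 249.6 and 203 and overlapped. Chromosome structure genes had a median of 0.10 with 2 of 5 without overlap, and 0.29 with the trend of gene length removed, described later. Cytokinesis genes had one of 0.16 with 1 of 6 without overlap, and 0.28 with the trend removed. Among them, Anln was at 43.0, 37.6 and 48.1 against 52.7 and 46.1 CPM and Ect2 at 30.7, 26.6 and 27.1 against 39.2 and 26.5, where shArid3a replicate 1 was above the controls and replicate 3 just below them.

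Other settings did call some of the list. DESeq2 called 9 genes higher (Aurka, Aurkb, Birc5, Bub3, Ccnb2, Cdca8, Cdk1, Nusap1 and Spc24) and Mki67 lower, a fit without the filter on low counts called 5 higher (Aurka, Birc5, Bub3, Ccnb2 and Spc24), and a fit over both tables of Gata1s cells called 14 higher and Mki67 lower. Genes resembling ribosomal RNA summed to 3105 to 3577 CPM in shArid3a against 288 to 583 in sh-ctrl; with those genes left out of the fit the median of the list was 0.26 (0 of 42 called).

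With miR-125b, 7 of the 42 genes rose and 2 fell against sh-ctrl in the fit by group, together no larger a share than among all genes tested. Those that rose were Spc24, Birc5, Bub3, Cdca8, Cdc20, Spc25 and the microtubule depolymerase Kif2c, and those that fell were Mki67 and the condensin subunit Smc2. Spc25 and Cdc20 were not called once the replicate number, taken below to pair these libraries, entered the fit as a block. Calls on the higher side made up 16.7% of the list against 12.1% of the 14004 genes tested, and calls on the lower side 4.76% against 12.2%, together 21.4% against 24.4%. At an unadjusted p under 0.05 there were 20 genes (47.6% of the list; 39.8% of all genes). All miR-125b libraries lay above the controls for 14 genes (33.3%; 22.9%) and below them for 7 (16.7%; 22.3%). The median log2 fold change was 0.091, against -0.028 over all genes; it was 0.017 without miR-125b replicate 1 and 0.036 without sh-ctrl replicate 1. Without sh-ctrl replicate 3 the 20 genes at an unadjusted p under 0.05 became 12. The controls are the same 3 libraries as for the hairpin.

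miR-125b pairs with its targets through its seed, and the mature strand is shown because its match was searched in the 42 genes. It is made from Mir125b-1 (chr9:41581940-41581961, + strand) and Mir125b-2 (chr16:77646279-77646300, + strand; RefSeq, GRCm38.p6), with bases 2 to 8 in capitals.
mmu-miR-125b-5p: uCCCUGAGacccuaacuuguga
In the longest 3′ untranslated region (UTR) of each gene (GENCODE M21, GRCm38), a match to the seed (7mer-m8 or 8mer) was present in 5 of 42 genes (11.9%), against 17.1% of the 11522 genes tested that have such a region. An 8mer was present in 1 of 42 (2.38%), Mad2l1, against 6.06%. The 5 sites are printed with the match in capitals.
Aurka, chr2:172356711-172356717 (- strand): ccctcatggctgccCTCAGGGtgccttgct
Mad2l1, chr6:66542719-66542726 (+ strand): gagagacttgaggcCTCAGGGActggggag
Cenpf, chr1:189642584-189642590 (- strand): agtgtccaCTCAGGGttctggaag
Nuf2, chr1:169498473-169498479 (- strand): tgatggagatacaaCTCAGGGccttgcatg
Kif2c, chr4:117160043-117160049 (- strand): gggtaaatttcaacCTCAGGGcatcatgcc

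The 5 genes with a printed site had log2 fold changes of 0.24 (Aurka), 0.32 (Mad2l1, the core of the checkpoint signal), -0.42 (Cenpf), 0.088 (Nuf2, partner of Ndc80) and 0.41 (Kif2c). Of these, only Kif2c passed the test, and it rose. A 7mer-A1 match (the seed match without its first base but with an A after it) was held outside these 5 by Cdk1, Ccna2, Ndc80 and Kif20a. Its share over all genes was not computed. Neither Mki67 nor Smc2 held a site of any of these kinds.

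Spc24 and Birc5 had the highest values. Spc24 (chr9:21755442-21760303, − strand) rose from 72.2, 73.4 and 63.7 to 153, 117 and 101 CPM (1.75-fold, log2 0.81, SE 0.16, adjusted p = 0.0102). Its partner Spc25 (chr2:69193895-69206194, − strand) rose from 55.6, 52.6 and 55.0 to 79.2, 69.6 and 70.0 (1.33-fold, log2 0.41, SE 0.13, adjusted p = 0.0411, not called with the block). In both genes every miR-125b library lay above every control. The third subunit, Ndc80, had the same layout, 52.7, 48.4 and 59.6 against 73.2, 68.1 and 65.7 CPM, without passing (adjusted p = 0.0593). Birc5 (chr11:117849251-117855743, + strand) rose from 190.4, 194 and 167 to 326, 285 and 268 CPM (1.58-fold, log2 0.66, SE 0.15, adjusted p = 0.0142). Cdca8 (chr4:124918465-124939311, − strand) rose from 169, 201 and 179.6 to 283, 245 and 233 (1.37-fold, log2 0.45, SE 0.13, adjusted p = 0.0316). The remaining members of that complex were nearer to the control: Aurkb was at 214, 186 and 201 CPM with miR-125b and Incenp at 197, 229 and 218, log2 fold changes of 0.18 and -0.042.

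Bub3 (chr7:131560222-131571895, + strand) rose from 206, 240.4 and 205 to 325, 303 and 294 CPM (1.40-fold, log2 0.48, SE 0.13, adjusted p = 0.0273) and was the 1 call among 5 checkpoint genes. Cdc20 (chr4:118432901-118437352, − strand), which the checkpoint holds in check, rose from 247, 294 and 235 to 356, 355 and 361 (1.36-fold, log2 0.45, SE 0.14, adjusted p = 0.0388, not called with the block). Kif2c (chr4:117159639-117182639, − strand), which corrects wrong attachments at centromeres, rose from 59.0, 75.8 and 77.1 to 89.9, 99.1 and 94.5 (1.32-fold, log2 0.41, SE 0.13, adjusted p = 0.0492). Each had all 3 miR-125b libraries above the controls. Cdk1 missed the threshold with 216, 195 and 174 against 283, 255 and 245 CPM (log2 0.40, SE 0.13, adjusted p = 0.0510), and 3 of 7 cyclins and kinases had no overlap.

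Genes of chromosome structure were all on the lower side, 5 of 5, with a median of -0.35. Mki67 (chr7:135689784-135716361, − strand) fell from 538, 614 and 732 to 312, 372 and 361 CPM (log2 fold change -0.86, SE 0.16, adjusted p = 0.00909; 1.82-fold lower). Smc2 (chr4:52439243-52488260, + strand) fell from 131, 157 and 172 to 95.5, 113 and 96.7 (log2 fold change -0.61, SE 0.14, adjusted p = 0.0174; 1.53-fold lower). No miR-125b library reached the control range for either gene. The other condensin genes Smc4 and Ncapd2 and Top2a did not pass, with log2 fold changes of -0.30, -0.19 and -0.35.

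Cytokinesis genes did not pass the test, and 5 of 6 were below 0 (median -0.14). Prc1, which bundles the central spindle, was at 61.3, 69.9 and 71.3 in sh-ctrl and 49.9, 55.0 and 53.1 CPM with miR-125b, without overlap (log2 -0.37, SE 0.14, adjusted p = 0.0767). Kif11 had a like value, 197, 219.6 and 244 against 171, 176 and 165 CPM (-0.38), and so did Espl1, 88.0, 91.6 and 106 against 62.1, 72.1 and 70.5 (-0.49). Kif23 was the 1 cytokinesis gene above 0, at 34.4, 37.1 and 49.3 against 44.0, 52.1 and 58.1 CPM (0.34, SE 0.17), with overlap. Ect2 was at 36.1, 26.0 and 23.5 CPM with miR-125b, overlapping the controls, with an interval of the log2 fold change from -0.41 to 0.41.

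The split between higher and lower calls depended on the scaling. Scaling by library totals moved the median of all genes by -0.19, and under it Birc5 and Spc24 were called higher and 8 genes lower (Cenpe, Espl1, Kif11, Mki67, Prc1, Smc2, Smc4 and Top2a), against 7 and 2 with TMM. The replicate numbers were taken to pair these libraries from correlated deviations and not from a label. With the number as a block, Spc25 (adjusted p = 0.0580) and Cdc20 (0.0501) were no longer called. Birc5, Bub3, Cdca8, Kif2c, Spc24, Mki67 and Smc2 kept their calls. Without sh-ctrl replicate 3 Mki67 was the only call; without sh-ctrl replicate 1, or without any 1 of the miR-125b libraries, Birc5 and Spc24 were the only genes called higher. Smc2 was also lost without miR-125b replicate 1 or 3. Erythroid markers summed to 387 to 419 CPM with miR-125b against 598 to 898 in sh-ctrl (8 of 11 at 1 CPM or above in both, with Slc4a1, Alas2 and Ermap below), and their part in the result was not tested. Genes resembling ribosomal RNA summed to 2730.4 to 3641 CPM; without them in the fit the calls were 6 and 2, with Kif2c lost.

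**Figure D3:**
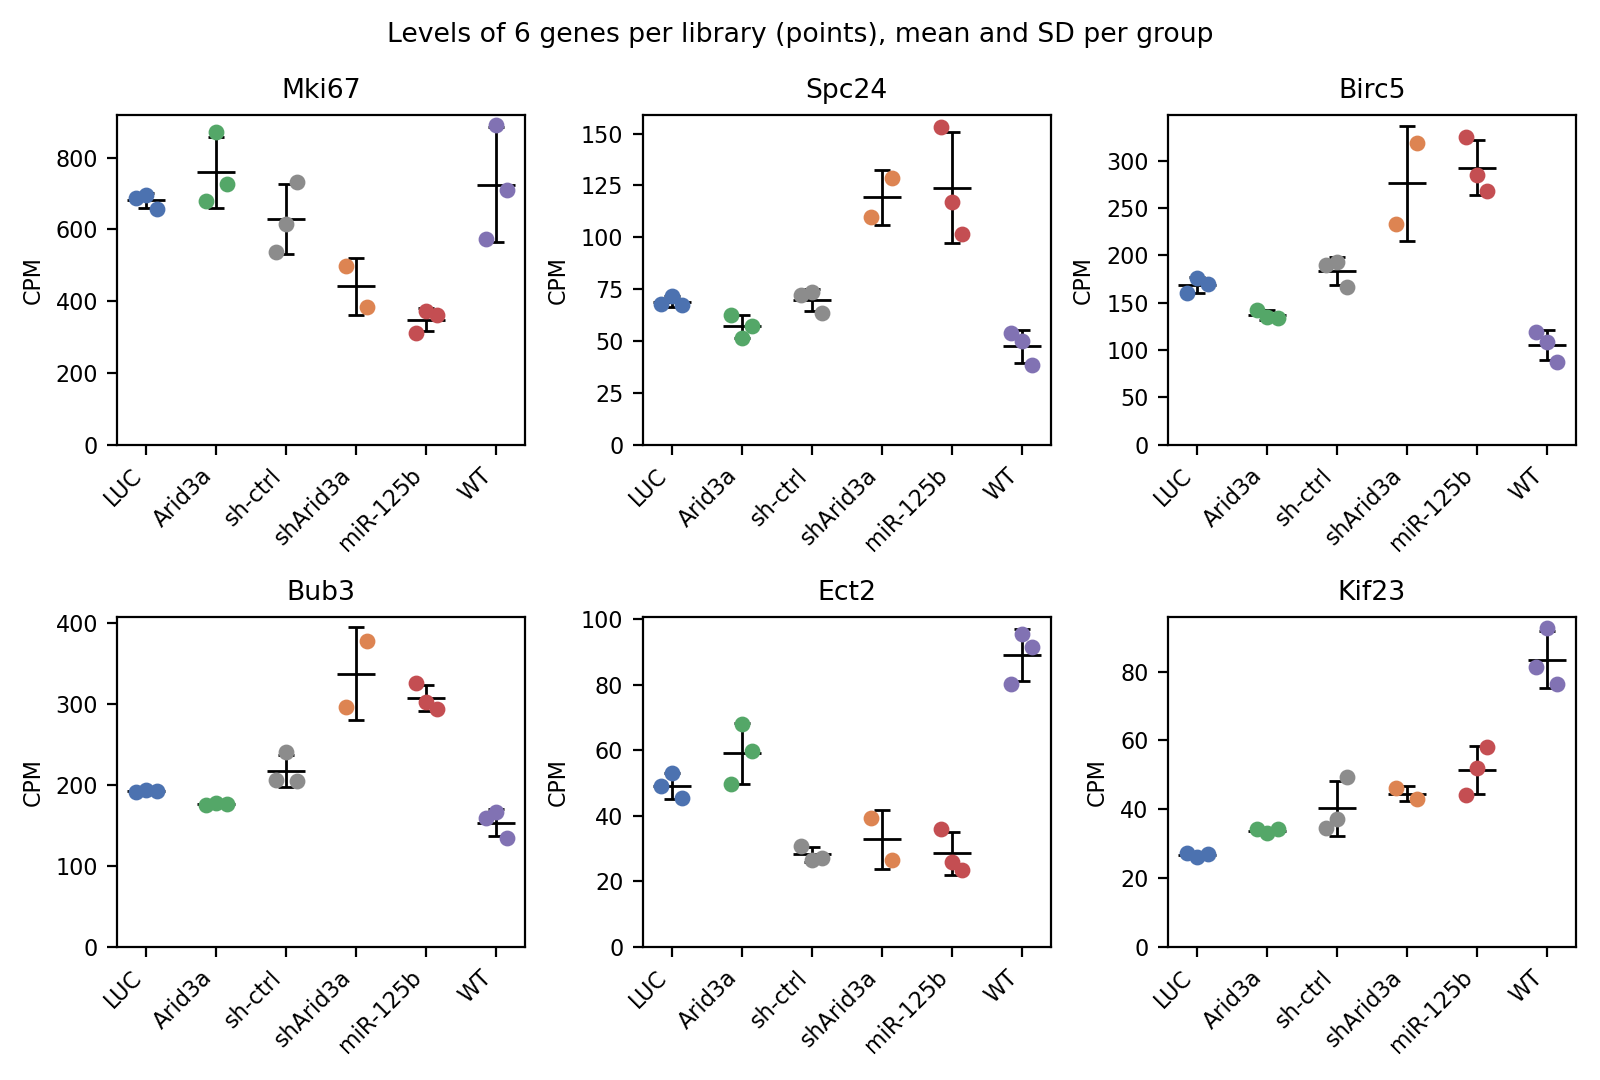
CPM (y axis, from 0) of 6 genes in each library (points) by group (x axis), with mean and SD as black bars. Mki67 with miR-125b (312 to 372 CPM) lies below all sh-ctrl libraries, Spc24, Birc5 and Bub3 with shArid3a or miR-125b lie above them, and Ect2 and Kif23 are highest in the WT libraries.

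Across the 42 genes the change with miR-125b followed gene length, as it did more weakly over the whole transcriptome. Spearman's rho between log2 fold change and length was -0.64 over the 42 genes and -0.30 over 13990 genes, a description across genes that share the same libraries. The 14 shortest genes (1349 to 3796 bases) had a median of 0.35, the middle 14 of 0.052 and the 14 longest (5514 to 15433 bases) of -0.13. Spc24, at 1349 bases, is the shortest of the list and Mki67, at 10075, the longest after Cenpf, at 15433. The trend was of like size with the hairpin (-0.58 over the list, -0.33 over all genes) and of opposite sign in the libraries labelled Arid3a (0.53 and 0.36).

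With the trend removed for all genes, 7 genes were still called higher and 2 lower with miR-125b. Birc5, Bub3, Cdca8, Kif2c, Spc24, Mki67 and Smc2 stayed, Cdc20 (adjusted p = 0.162) and Spc25 (0.0509) were lost, and Cenpa and Mad2l1 were added. Mki67 then stood at -0.49, Spc24 at 0.55 and Bub3, a gene of 7006 bases, at 0.76. The median of chromosome structure genes moved from -0.35 to -0.13 and that of cytokinesis genes from -0.14 to 0.066. This correction was chosen after the data were seen.

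**Figure D4:**
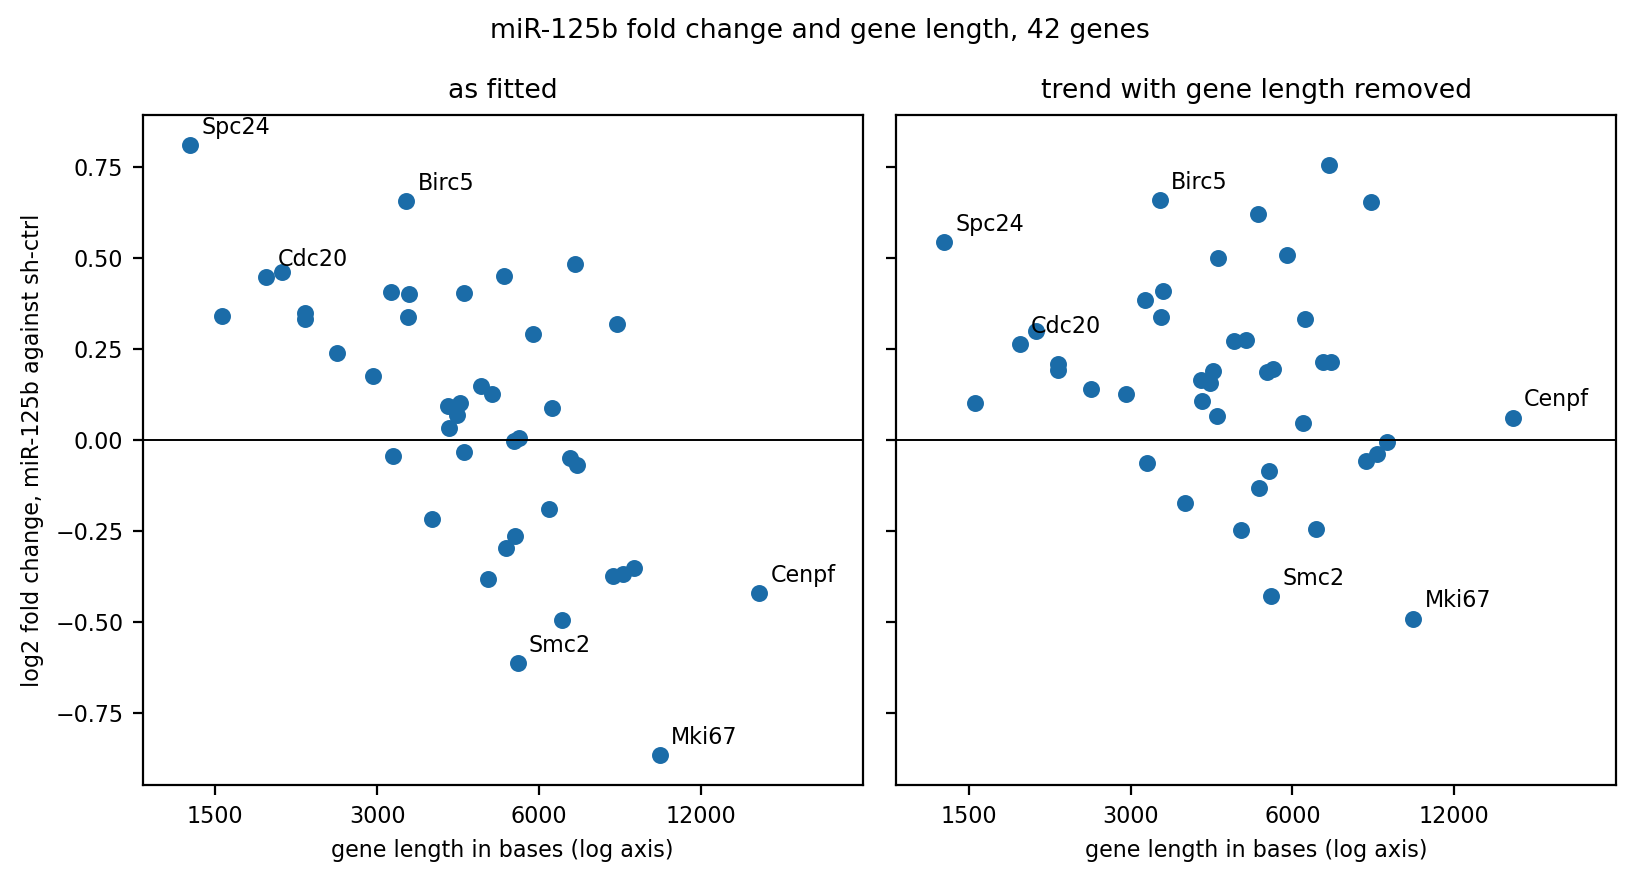
Log2 fold change of the 42 genes with miR-125b (y axis) against gene length in bases (x axis, log scale), as fitted (left) and with the trend over all genes removed (right). Short genes such as Spc24 lie high and long genes such as Mki67 and Cenpf low on the left; on the right Cenpf is at 0.06 while Mki67 and Smc2 remain below 0.

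The hairpin and miR-125b were also compared directly, without the shared controls. No gene of the list passed this test (1.35% of all genes were called; lowest adjusted p = 0.109). At an unadjusted p under 0.05, 9 genes were lower with miR-125b and 0 higher, 21.4% of the list against 14.5% of all genes; the 9 became 2 without shArid3a replicate 1, 5 without miR-125b replicate 2 and 4 without miR-125b replicate 3. The median was -0.22, against -0.0069 over all genes, and 31 of 42 lay below 0; it was -0.13 without shArid3a replicate 1. All miR-125b libraries were below both hairpin libraries for 19 genes (45.2% of the list; 15.6% of all genes) and above them for 1, Cenpa (2.38%; 13.9%).

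Chromosome structure genes were set apart in 5 of 5 cases, with a median of -0.48. Smc4, a condensin subunit, was at 324 and 333 CPM with the hairpin and 221, 241 and 239 with miR-125b (log2 -0.49, SE 0.13, adjusted p = 0.109), and was called by DESeq2 and by the fit over both tables. Smc2 was at 163 and 134 against 95.5, 113 and 96.7 CPM and had the lowest value of the list (-0.55, SE 0.16). The kinetochore gene Nuf2 overlapped, at 113 and 126 against 117, 97.8 and 92.8 CPM, and so did Espl1, at 102 and 66.0 against 62.1, 72.1 and 70.5. Top2a was at 704 and 553 against 444, 462 and 445. Anln, at 52.7 and 46.1 against 33.0, 39.0 and 36.3 CPM, and Kif11, at 249.6 and 203 against 171, 176 and 165, were also without overlap. So were Aurka, 136 and 157 against 114, 119 and 108, Aurkb, 228 and 241 against 214, 186 and 201, and Bub1, a checkpoint kinase, 101 and 92.8 against 82.5, 76.8 and 70.8. For genes that stood high in both groups the interval of the difference held 0: Spc24 differed by 0.055 (interval -0.29 to 0.40), Birc5 by 0.088 (-0.23 to 0.41) and Bub3 by -0.13 (-0.42 to 0.16). The highest value was that of Kif23 (0.21, SE 0.19).

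The effect in the libraries labelled Arid3a and that of the hairpin were set against each other, since they share no libraries. The former was taken at 48 h of doxycycline and the latter at 10 days. Their difference, tested in 1 fit of the 14 Gata1s libraries, was below 0 for 8 called genes (19.0% of the list; 8.84% of the 14884 genes tested) and above 0 for 2 (4.76%; 9.1%), together 23.8% of the list against 17.9%. The 8 were Spc24, Birc5, Bub3, Ccnb2, Cdca8, Cdk1, Aurka and Aurkb, and the 2 were Cenpf and Mki67. A called difference need not mean opposite changes. Aurka was at 32.1 CPM per kb in LUC and 32.3 in the libraries labelled Arid3a, and at 37.6 in sh-ctrl and 57.8 in shArid3a. Spc24 was -0.27 in the libraries labelled Arid3a and 0.76 with the hairpin, a difference of -1.02 (SE 0.21, adjusted p = 0.0116). Birc5 was -0.30 and 0.57, a difference of -0.87 (SE 0.18, adjusted p = 0.0119). For Bub3, -0.13 and 0.62 gave -0.74 (SE 0.15). Cenpf stood opposite, with 0.53 and -0.45, a difference of 1.00 (SE 0.27, adjusted p = 0.0276), and Mki67 with 0.15 and -0.52 (0.69, SE 0.21).

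Across the 42 genes the effects had a Pearson r of -0.71 and a Spearman rho of -0.69, against -0.40 and -0.51 over the 13102 genes tested in both tables; this is across genes and carries no test. Markers of stem and progenitor cells moved in the same comparisons, with sums of 156 to 179.9 CPM in LUC, 237 to 252 in the libraries labelled Arid3a, 112 to 157 in sh-ctrl and 103 to 112 in shArid3a. Of those 7 markers, 2 or 3 reached 1 CPM, while Hlf, Mecom, Hoxa9 and Flt3 did not in any of these groups. The megakaryocyte marker Itga2b was at 1171 ± 91.6 CPM (SD, n = 3) in LUC and 1594 ± 93.6 (n = 3) in the libraries labelled Arid3a, and at 1665 ± 166 (n = 3) in sh-ctrl and 961 ± 87.2 (n = 2) in shArid3a. The mean of Pf4, another megakaryocyte marker, moved the other way, from 1148 ± 81.9 CPM in LUC to 730 ± 576 in the libraries labelled Arid3a. It was 1585 ± 731 in sh-ctrl and 2128 ± 193 in shArid3a. Sums of all 12 megakaryocyte markers overlapped, at 3005 to 3463 CPM in LUC and 2977 to 4724 in the libraries labelled Arid3a. They were 3625 to 5421 in sh-ctrl and 3763 to 4131 in shArid3a. The part of these markers in the result was not tested. The signs were opposite for 23 of 42 genes (54.8%), fewer than the 72.4% over all genes, and 18 genes were above 0 in both. With the trend of gene length removed, r over the list was -0.52 and 52.4% had opposite signs. The calls of Cenpf and Mki67 were then lost (adjusted p = 0.433 and 0.647), as were those of Ccnb2, Aurka and Aurkb, while Mad2l1, Nuf2 and Top2a were added below 0. Without shArid3a replicate 3 none of the 42 genes was called (53 over all genes), and without any 1 of the LUC libraries, Arid3a replicate 2 or 3, or sh-ctrl replicate 3, Cenpf and Mki67 were lost and 4 to 6 genes below 0 remained. Birc5, Bub3, Cdca8 and Spc24 were among these each time, and scaling by library totals left Birc5, Bub3, Cdca8 and Spc24 below 0.

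**Figure D5:**
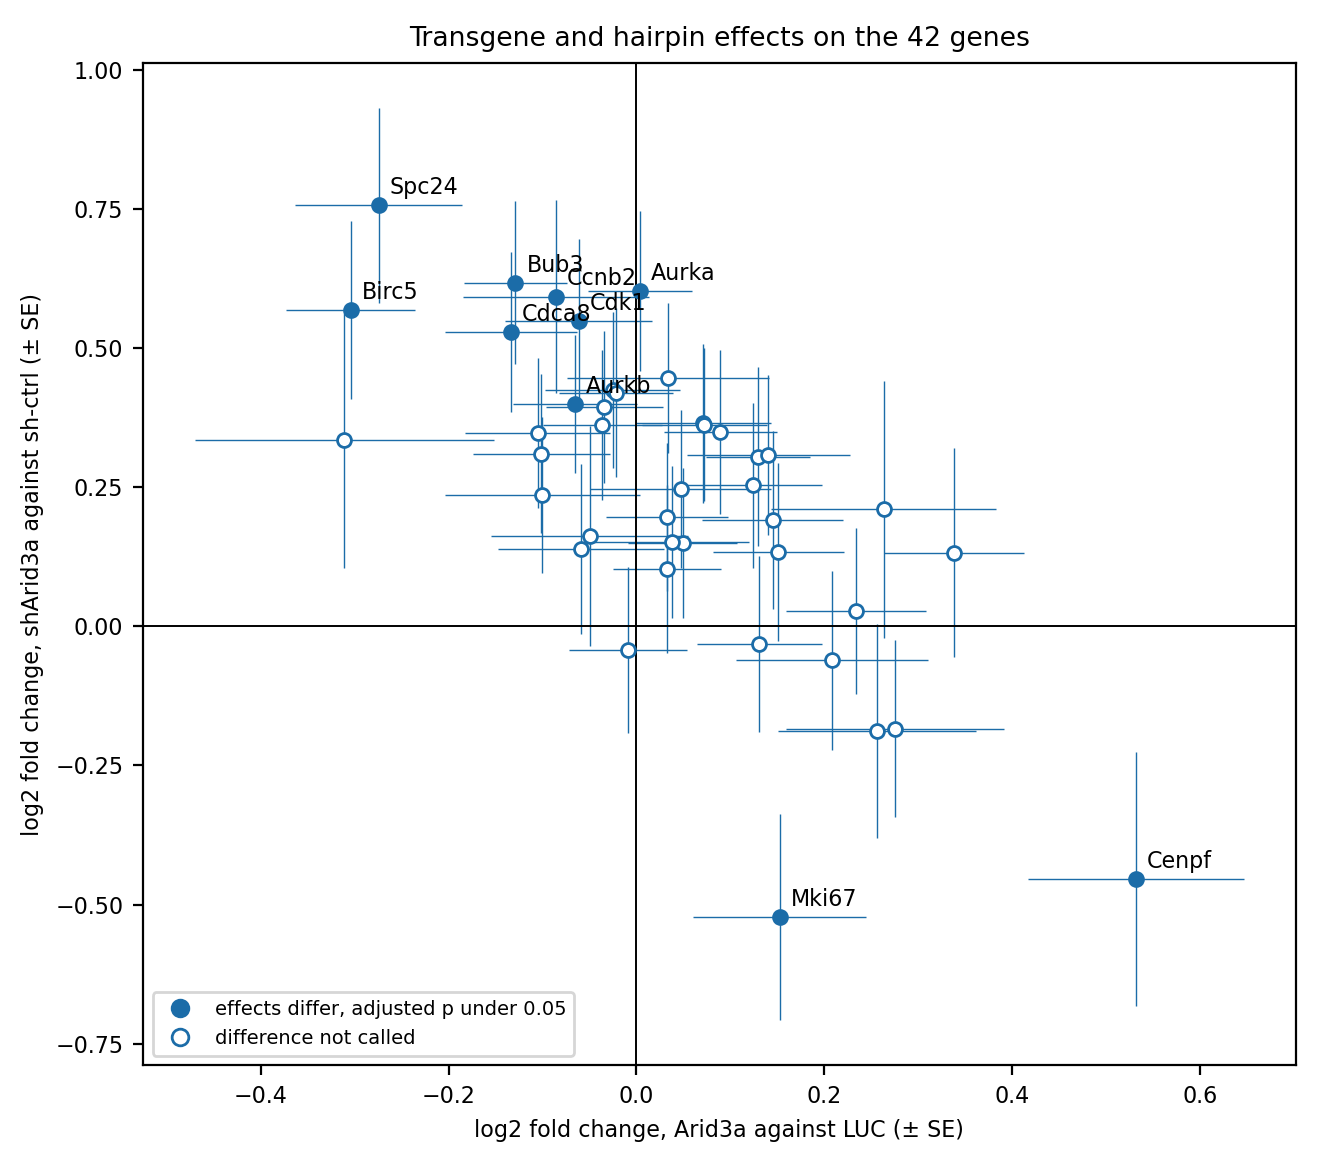
Log2 fold change of the 42 genes in the libraries labelled Arid3a against LUC (x axis, ± SE) and in shArid3a against sh-ctrl (y axis, ± SE); filled and named points are the 10 genes whose effects differ at an adjusted p under 0.05. Of these, Spc24 and Birc5 lie at the upper left, and Cenpf and Mki67 at the lower right.

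A further 62 genes of mitosis were read beside the list. With miR-125b, 11 rose and 4 fell, 17.7% and 6.45% against 12.1% and 12.2% of all genes, with a median of 0.011. Cdc25c, the phosphatase that activates CDK1, rose from 33.1, 35.3 and 32.6 to 53.1, 52.8 and 50.5 CPM (log2 0.62, SE 0.12), and the centromere gene Cenph from 48.5, 45.4 and 39.1 to 103, 78.4 and 61.1 (log2 0.85, SE 0.18). Kif14, a motor of cytokinesis, fell from 41.9, 44.5 and 51.0 to 24.6, 29.3 and 24.8 CPM (log2 -0.82, SE 0.18). With the hairpin 0 of 62 were called and the median was 0.17; the centromere gene Cenpk had the smallest p, at 25.6, 23.7 and 23.3 against 41.6 and 52.6 CPM. In the libraries labelled Arid3a 0 of 62 were called, with a median of -0.045; Aspm, a spindle pole protein gene, had the smallest p at 55.7, 53.0 and 54.5 against 72.5, 106 and 93.8 CPM. The difference of these effects was called for 15 of 62 below 0 (24.2%, against 8.84% of all genes) and 2 above (3.23%, against 9.1%). These counts come from the fit of all Gata1s libraries. Their dependence on shArid3a replicate 3, given above for the main list, was not followed here.

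Since endoreplication keeps S phase while it drops division, 34 genes of S phase and the endocycle were read in the same way. In the libraries labelled Arid3a 29 of 34 were below 0 (median -0.14, 0 called), against 18 of the 42 mitosis and cytokinesis genes (median 0.033). With the hairpin 26 of 34 were above 0 (median 0.40, 0 called), and with miR-125b 24 of 34 (median 0.28), where 7 (20.6%) were called higher and 1 (2.94%) lower against 12.1% and 12.2% of all genes. The clamp of DNA polymerases, Pcna, was at 581, 576 and 549 CPM in LUC and 456, 429.9 and 453 in the libraries labelled Arid3a. It was at 573, 639 and 500.1 in sh-ctrl and 824 and 1007 in shArid3a. Gins2, a subunit of the replicative helicase, rose with miR-125b from 43.9, 41.5 and 27.6 to 93.1, 82.8 and 67.5 CPM (log2 1.09, SE 0.19), and the transcription factor gene E2f2 fell from 79.1, 74.8 and 64.9 to 23.1, 23.8 and 13.4 (log2 -1.88, SE 0.24). The difference between the Arid3a and hairpin effects was called below 0 for 13 of 34 S phase genes (38.2%; 8.84% of all genes) and above 0 for 0 (9.1%). This count, too, comes from the fit of all Gata1s libraries, and its dependence on shArid3a replicate 3 was not followed. No test compared the lists with each other.

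WT cells were set beside the Gata1s controls as levels only, because guide, doxycycline, second transgene and table change together and cannot be told apart. The WT table lists 47643 genes, against 47069 in each of the others, so its gene models may differ, which could move the levels of single genes. With a 2-fold difference of means and no overlap as the mark, 1 of the 42 genes was higher in WT than in LUC (Kif23; 20.5% of 12533 genes) and 2 higher than in sh-ctrl (Kif23 and Ect2; 20.8% of 12646 genes). None was lower by that mark (8.92% and 12.6% of all genes). Such differences were thus rarer in the list than among all genes.

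The 2 marked genes belong to cytokinesis. Ect2 was at 80.3, 95.6 and 91.4 CPM in WT, 49.1 ± 3.85 (SD, n = 3) in LUC and 28.2 ± 2.24 (n = 3) in sh-ctrl, that is 1.82-fold and 3.16-fold higher in WT. Kif23 was at 81.5, 92.7 and 76.3 CPM in WT, 26.7 ± 0.600 in LUC and 40.2 ± 7.96 in sh-ctrl (3.13-fold and 2.07-fold). Anln, with 73.6, 85.6 and 69.9 CPM in WT, was 1.60-fold and 1.78-fold higher. Not all of the role was placed so: Racgap1, the partner of Kif23 in the centralspindlin complex, was at 128, 138 and 129.9 CPM in WT and 138 ± 8.28 in LUC, and Kif20a at 65.4, 88.5 and 73.1 and 97.0 ± 5.02. The median log2 ratio of the 6 cytokinesis genes was 0.50 against LUC and 0.64 against sh-ctrl, while that of all 42 was -0.086 and -0.12.

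On the other side, Cdc20 was at 146, 135 and 121 CPM in WT, 231 ± 1.40 in LUC and 259 ± 31.6 in sh-ctrl, 1.72-fold and 1.93-fold lower in WT. Birc5 was lower by 1.60-fold and 1.74-fold, and Plk1 by 1.57-fold and 1.81-fold. The order of the 6 groups for Ect2 ran from sh-ctrl (28.2 CPM) and miR-125b (28.5) over shArid3a (32.8), LUC (49.1) and Arid3a (59.1) to WT (89.1); neighbours overlapped except shArid3a and LUC and except Arid3a and WT. Myeloid markers moved with the group, as given earlier, and their part in these levels was not tested.

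Counts of some of the 42 genes could hold reads of a neighbour. In GENCODE M21, 22 of the 42 overlap another annotated gene and 16 overlap one on the other strand, among them Bub3 with Fgfr2, Cdc20 with Elovl1, Ccna2 with Exosc9 and Nusap1 with Oip5. Whether the counting used strand is not given in the sources used here, so reads of such pairs may not be told apart. Of the genes called with miR-125b, Bub3, Cdc20, Cdca8, Mki67 and Smc2 overlap a gene on the other strand, while Spc24, Spc25, Birc5 and Kif2c overlap no other annotated gene.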

How the data were processed

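RNA-seq counts of 17 libraries in 6 groups were used, in 3 tables: LUC and Arid3a; sh-ctrl, shArid3a and miR-125b; and WT. The deposited values are whole-number read counts for each gene, which the authors had not normalized, per the file headers. The submitters' processing notes name fastp, HISAT2 2.0.5, featureCounts and the build mm10; parameters, annotation and use of strand are not given in the sources used here. Columns were matched to samples by name, and 0 columns were without a sample. The tables were joined by Ensembl identifier. The gene length column, in bases, is the authors' own.

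Counts were analysed with edgeR 4.0.16 in R 4.3.3: TMM scaling per table, filterByExpr, a quasi-likelihood fit with 1 term per group (glmQLFit, glmQLFTest) and Benjamini-Hochberg adjustment over all genes tested, with calls at an adjusted p under 0.05. The Arid3a and LUC libraries made up 1 fit, the other 8 Gata1s libraries another, and the difference of effects used all 14. Standard errors come from the F statistics and intervals are 1.96 SE wide on each side (95%). Levels are CPM with TMM over all 17 libraries. Library totals were 31339238 to 38678649, 31992089 to 40859301 and 16362439 to 19212193 counts in the order of the tables. On simulated counts, the tests on 13280 to 13663 genes recovered 62.1% to 70.8% of 2-fold and 92.9% to 97.9% of 4-fold changes in the 4 comparisons of groups. The changed genes were drawn only from those with higher counts, and the spread followed the fitted trend. No gene of the list reached a 2-fold change in these comparisons, and smaller changes were not simulated. The difference of effects was not simulated either.

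Alternatives were DESeq2 1.42.0, other scalings, no filter, a replicate block, one fit over both tables, and each library left out. Deviations of same-numbered miR-125b and sh-ctrl libraries correlated at 0.45, 0.15 and 0.49, and those of sh-ctrl replicate 3 and miR-125b replicate 2 at 0.29. The numbers were taken to pair the miR-125b and sh-ctrl libraries, and in the other comparisons they were not. The calls and p-values first given for miR-125b still come from the fit by group, with the block as an alternative. Promoters and miRNAs are RefSeq's, searched on both strands; 3′ UTRs are GENCODE M21's. The 42 genes, the lists and the rules were chosen with earlier results of these data known. Values of each library are given for the gene of each role with the smallest p in a comparison and for Mki67, Cdk1, Aurkb, Bub3, Ndc80, Kif11, Ect2 and Espl1, with 3 genes of each further list. Values per library of other genes were added after they were seen. Replicate 2 of shArid3a was not analysed here.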

Additional observations from a re-analysis of the deposited data

Results flagged for a closer look

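For 10 of the 42 genes the effect in the libraries labelled Arid3a (against LUC) and the effect of the Arid3a hairpin (against sh-ctrl) differed in edgeR's test of the difference itself, on the log2 scale. The former effect was taken at 48 h of doxycycline and the latter at 10 days. The difference was -1.02 for Spc24, -0.87 for Birc5, -0.74 for Bub3, -0.67 for Ccnb2, -0.65 for Cdca8, -0.60 for Cdk1, -0.59 for Aurka and -0.46 for Aurkb. It was 1.00 for Cenpf and 0.69 for Mki67. Birc5, Bub3 and Spc24 kept the call in 17 of 18 alternatives, all but the fit without shArid3a replicate 3. Cenpf and Mki67 kept it in 9 of 18, and the fit with the trend of gene length removed was among those that lost it. Ccnb2 and Aurkb kept it in 7 of 18.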

How the results depend on the processing

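Of the counts of called genes, 108 of 150 stayed within 1.5 times the value given, and 42 did not. Counts of 0 that stayed at 0 are among the 108, so this share says little about the counts above 0. For Arid3a against LUC (0 higher, 0 lower), DESeq2 gave 2 higher and 1 lower, and leaving out each library gave 0 to 7 higher and 0 to 4 lower. For shArid3a against sh-ctrl (0 and 0), DESeq2 gave 9 higher and 1 lower, no filter 5 higher, 14 higher and 1 lower came from one fit over both tables, and leaving out each library 0. For miR-125b against sh-ctrl (7 and 2), library totals gave 2 higher and 8 lower, DESeq2 4 lower, a fit of only these groups 5 lower, 11 higher and 8 lower came from one fit over both tables, and leaving out each library 0 to 5 higher and 1 to 2 lower. For miR-125b against shArid3a, DESeq2 and the fit over both tables each called 1 lower. For the difference between the Arid3a and hairpin effects (2 above and 8 below 0), library totals gave 4 below, the trend of gene length removed 0 above, and leaving out each library 0 to 3 above and 0 to 11 below. With the replicate number as a block it gave 0 above and 4 below, but there the numbers were not taken to pair the libraries. The block called 0 genes of the list for the Arid3a and the shArid3a comparison. With miR-125b the block changed no call but those of Spc25 and Cdc20. The median log2 fold change of the list changed sign under library totals with miR-125b (0.091 to -0.11) and in the difference (-0.19 to 0.021). No called gene changed direction in any alternative. The fits without a library have fewer samples, and the cause of the changes was not tested for any alternative. A lone shArid3a library is assumed to vary like the other groups. The removal of the length trend was added after the data were seen.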

Other observations

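The contractile ring that the cytokinesis genes direct is built from actin, myosin and RhoA-driven regulators. A list of 18 genes of the ring, the RhoA pathway and the final cut between daughter cells was read, which also holds the tubulin gene Tubb6 and the kinesin gene Kif3b, and 17 were tested. Cep55 is also among the 62 further genes of mitosis. Calls with miR-125b were 2 of 17 higher (11.8%, against 12.1% of all genes) and 1 lower (5.88%, against 12.2%), no larger shares than among all genes. With miR-125b, Cit (citron kinase, which joins anillin and RhoA at the midbody) fell from 66.5, 69.0 and 92.6 CPM in sh-ctrl to 33.2, 39.6 and 34.3 (log2 -1.11, SE 0.20, adjusted p = 0.00739). The tubulin gene Tubb6 rose from 61.7, 46.0 and 32.6 to 85.5, 69.9 and 102 CPM (log2 0.86, SE 0.26), and the myosin light chain gene Myl12b from 210.4, 173 and 165 to 285, 248 and 232 (log2 0.46, SE 0.14). With the hairpin 0 of 17 were called, with Cit at 55.2 and 35.5 CPM, and in the libraries labelled Arid3a 0 of 17.

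The difference between the Arid3a and hairpin effects was called above 0 for 5 of 17 of these genes (29.4%; 9.1% of all genes), Cit, Diaph1, Kif3b, Myh9 and Rock2, and below 0 for 0 (8.84%). Myh9, the non-muscle myosin heavy chain, was at 1178, 1197 and 1139.9 CPM in LUC and 1235, 1728 and 1623 in the libraries labelled Arid3a, and at 1031, 1408 and 1292 in sh-ctrl and 888 and 772 in shArid3a. The difference for Myh9 was 0.99, SE 0.27 and that for Cit 1.03, SE 0.27 on the log2 scale. The formin gene Diaph1 differed by 0.70, SE 0.18. Calls of this difference in the ring list come from the fit of all Gata1s libraries, and their dependence on shArid3a replicate 3 was not followed.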
